A study of Homo sapiens with 8 samples.

Results

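Of the 4227 RBFOX2 peaks deposited for this series, 1596 (37.8%) had no TIA1 peak overlapping or within 1000 bases on their strand and at least 1 other RBFOX2 peak within 1000 bases on that strand. These clustered RBFOX2 peaks far from TIA1 were chosen by position in both lists, so their position relative to other peaks is a description and not a finding. They formed 491 clusters, where a cluster is the set of such peaks in 1 chain of RBFOX2 peaks with steps of at most 1000 bases. The remaining RBFOX2 peaks were 1096 solitary peaks far from TIA1, 1213 clustered peaks near TIA1 and 322 solitary peaks near TIA1.

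The series holds 8 eCLIP libraries from HEK293T, an immortalised human embryonic kidney line. In eCLIP, protein and RNA are crosslinked by ultraviolet light, the complexes are immunoprecipitated and the RNA is sequenced. RBFOX2 and TIA1 each had 2 libraries of immunoprecipitated RNA (clip) and 2 of input RNA. All received 600 mJ of ultraviolet light, and an antibody to the HA tag is listed for each clip library and none for the inputs. A protocol text shared by all 8 libraries instead mentions beads carrying TIA1, also for the RBFOX2 libraries, so what the RBFOX2 clip was pulled down with is not settled by the labels. They do not describe how tagged proteins were made, and call the replicates biological in one field and technical in another. The authors deposited 1 peak list per protein that joins both replicates, so no value per library, no read depth and no spread between replicates exists for any peak. No test was therefore made, and every difference below is one between deposited values of peaks that share libraries, clusters and often a single stretch of RNA.

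RBFOX2 belongs to the RBFOX family of splicing regulators, whose RNA recognition motif binds the element GCAUG. Bound in an intron downstream of an alternative exon it is known to favour inclusion of that exon, and bound upstream it is known to favour skipping. RBFOX proteins also bind 3′ untranslated regions, and copies of their element often lie close together. TIA1 recognises a different kind of sequence, rich in U, and the rule separates RBFOX2 peaks from those with a TIA1 peak nearby. The genes under the peaks and the letters of their sequence need the hg19 genome and its annotation, which were not used here, so regions are named by their position in hg19, counted from 1. Motif content, and thus the presence of GCAUG, was not analysed here.

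Each deposited peak carries a log2 fold, read here as clip over input, and a −log10 p. No peak of the RBFOX2 list has a log2 fold under 3.0, which is 8.0-fold, so all values are those of a truncated range. The 1596 clustered far peaks had a median log2 fold of 3.63 (quartiles 3.30 and 4.06), or 12.4-fold over input. Solitary far peaks had a median of 3.38 (3.16 and 3.74), clustered peaks near TIA1 3.46 (3.23 and 3.82) and solitary peaks near TIA1 3.30 (3.14 and 3.55). The interquartile ranges of all 4 classes overlapped. Of the 1596 clustered far peaks, 451 stood at a log2 fold of 4 or more, which is 16-fold, or 28.3% (95% Clopper-Pearson interval 26.1 to 30.5%), against a background of 19.3% over the whole list. The share was 12.6% of solitary far peaks and 17.0% of clustered peaks near TIA1. Clopper-Pearson intervals here cover counting error only and take neighbouring peaks as independent, which they are not.

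The −log10 p ordered the classes differently. Its median was 6.47 in clustered far peaks (quartiles 4.45 and 9.89), 4.77 in solitary far peaks, 10.8 in clustered peaks near TIA1 and 6.98 in solitary peaks near TIA1. Clustered far peaks thus had higher folds but lower −log10 p than clustered peaks near TIA1. Of the 100 RBFOX2 peaks with the highest log2 fold, 67 were clustered far peaks and 25 were clustered peaks near TIA1. Of the 100 with the highest −log10 p, 14 were clustered far peaks and 83 were clustered peaks near TIA1. Over the whole list these 2 classes made up 37.8% and 28.7% of the peaks. Neighbouring peaks of 1 locus can enter a top 100 together, so these counts are not counts of loci. The −log10 p reached its upper limit of 400 in 2 clustered far peaks, against a background of 0.686% of the list (29 peaks), and in 27 clustered peaks near TIA1. The next highest value among clustered far peaks was 51.1, and 528 of them (33.1%) stood under 5. Across the 1596 peaks, log2 fold and −log10 p had a Spearman correlation of 0.33, given as a description because both come from the same reads.

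**Figure D1:**
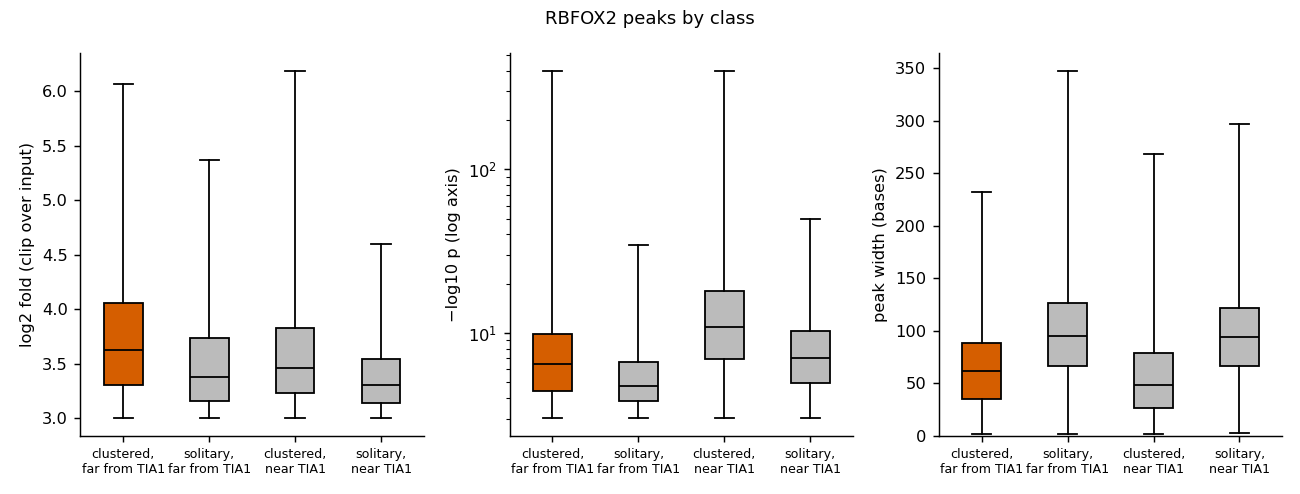
Log2 fold (left), −log10 p on a log axis (middle) and width in bases (right) of the 4 classes of RBFOX2 peaks. Boxes span the quartiles, the line is the median and whiskers run from the lowest to the highest peak. Clustered far peaks (orange, n = 1596) have the highest median log2 fold, 3.63, and the second highest whisker, 6.07.

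Clusters were small in most cases. Of the 491, 265 held 2 clustered far peaks (54.0%), 97 held 3, 43 held 4, 27 held 5 and 56 held 6 or more. The largest held 16. The 83 clusters with 5 or more peaks contained 600 of the 1596 peaks (37.6%), so many of the peaks came from few loci. In 6 clusters the chain also held RBFOX2 peaks near TIA1, and these 6 gave 10 of the peaks. Of these, 3 contributed a single clustered far peak, on chromosome 3 at 48605147 to 48605189 and 71805110 to 71805219 and on chromosome 20 at 34637576 to 34637609.

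The word clustered covers 2 arrangements in these data, and 1 cluster can hold both. Neighbouring peaks of a cluster, counted as 1105 pairs, abutted with no base between them in 596 pairs (53.9%), and 179 more pairs were 1 to 50 bases apart. Another 146 pairs were 51 to 200 bases apart, 113 were further apart but within 500 bases, and 71 lay beyond that. When peaks within 50 bases were joined into 1 site, 247 of the 491 clusters (50.3%, 95% Clopper-Pearson interval 45.8 to 54.8%) consisted of a single joined site, 3 of them with only 1 clustered far peak. The other 244 clusters held several sites: 176 had 2, 52 had 3 and 16 had 4 or more. Thus, by this 50-base cut, about as many clusters were 1 joined site as held several. Clusters of several sites were not only spaced single peaks. Of the 244, 87 held just 2 peaks, and in larger ones a site could itself consist of abutting peaks. None of the 13 clusters of 10 to 16 peaks was a single joined site.

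**Figure D2:**
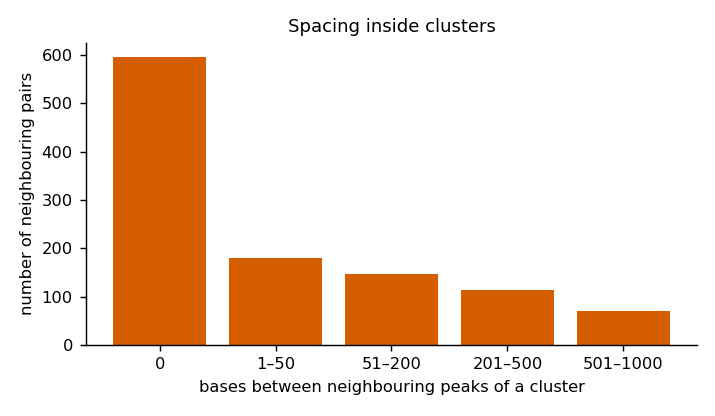
Number of neighbouring pairs of clustered far RBFOX2 peaks by the bases between them. The tallest bar is the 596 pairs that abut, and 330 pairs lie more than 50 bases apart.

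The 2 arrangements are defined by gaps of at most 50 bases or wider, so their differences in span and cover follow from the definition. Among clusters with at least 2 of the peaks, those of 1 joined site spanned a median of 158.5 bases (quartiles 108.75 and 217), and peaks covered a median of 100% of the span. Clusters of several sites spanned a median of 569 bases (420.5 and 869.25), with peaks over a median of 44.5% of the span. Within them the gap from one joined site to the next had a median of 227 bases (quartiles 112.25 and 428). The 607 peaks of single-site clusters had a median log2 fold of 3.58 (3.27 and 3.99), and the 989 peaks of clusters of several sites had 3.67 (3.32 and 4.12). Median widths were 63 and 62 bases. These values lie well within each other's quartiles.

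In this list, peaks in larger clusters had higher folds and were narrower. Cluster size, fold and width all come from the same peaks above the log2 fold threshold, so they are not independent. The trend is a description and was not tested. In clusters of 2 peaks the median log2 fold was 3.53 (quartiles 3.24 and 3.93), in clusters of 4 to 5 it was 3.63 (3.30 and 4.16), and in the 13 clusters of 10 to 16 it was 3.98 (3.58 and 4.26). The share of peaks at a log2 fold of 4 or more was 20.6% in clusters of 2, 20.3% in clusters of 3, 33.2% in clusters of 4 to 5, 34.2% in clusters of 6 to 9 and 47.2% in clusters of 10 to 16. Over the same steps the median width went from 79 to 68, 61, 49.5 and 30 bases, and the median −log10 p from 5.38 to 10.1. The 13 largest clusters hold 161 peaks, so their values describe 13 loci.

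**Figure D3:**
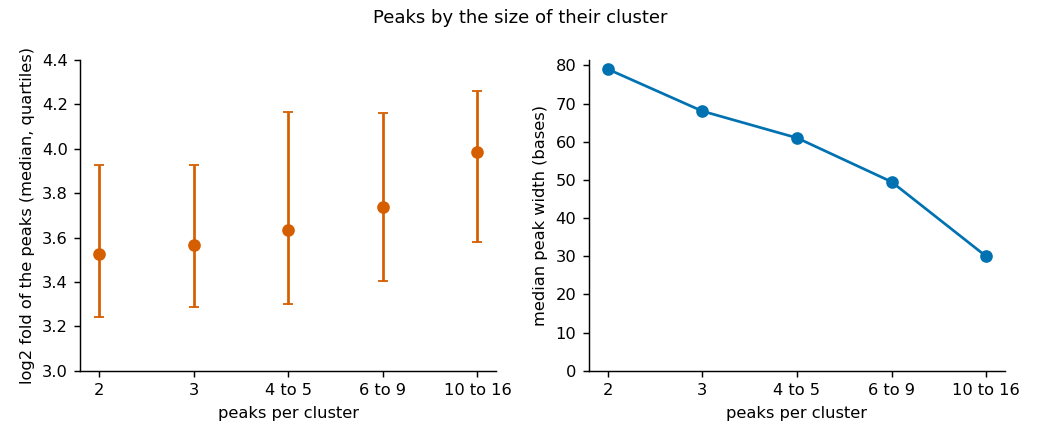
Left, log2 fold of clustered far RBFOX2 peaks by the number of such peaks in their cluster (dot, median; bars, quartiles). Right, their median width in bases. The median log2 fold is 3.53 in clusters of 2 and 3.98 in clusters of 10 to 16, while the median width is 79 and 30 bases.

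The fold varied inside clusters nearly as much as over all of these peaks. The SD of log2 fold within clusters was 0.47, against 0.55 over the 1593 peaks that share a cluster with another, and the cluster means had an SD of 0.40. The difference from the highest to the lowest peak of a cluster had a median of 0.54 on the log2 scale (quartiles 0.27 and 0.99) and reached 2.96. Abutting neighbours differed by a median of 0.31, and neighbours more than 50 bases apart by 0.40. At least 1 peak at a log2 fold of 4 was present in 233 of the 491 clusters (47.5%). In 22 of the 488 clusters with at least 2 of the peaks every one stood at that level. Shares of clusters depend on their number of peaks and cannot be set against the 19.3% of single peaks over the whole list.

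Read from 5′ to 3′ along the RNA, the highest fold was an inner peak in 120 of the 223 clusters with at least 3 peaks (53.8%), the peak nearest the 5′ end in 45 and the peak nearest the 3′ end in 58. Inner peaks made up 50.0% of the peaks of such a cluster on average, so the share with an inner summit was close to the share of peaks that are inner. In the 265 clusters of 2 it was the 5′ peak in 137 and the 3′ peak in 128. The mean of the inner peaks exceeded that of the outer pair in 132 of the 223 clusters, by a median of 0.073 over all 223 (quartiles -0.19 and 0.36). Inner peaks were narrower, with a median of the cluster means of 50 bases against 69. Within joined sites of at least 5 peaks, 13 of 41 (31.7%) had a log2 fold that went up to a single inner summit and down after it. Among the 161 sites of at least 3 peaks, 58 did (36.0%). The share that a random order would give depends on the number of peaks and was not computed, so the 2 shares cannot be compared directly. The peak of highest fold was also the peak of highest −log10 p in 252 of the 488 clusters with at least 2 (51.6%). Of the 488, 265 held only 2 peaks. The share that unrelated orders would give was not computed, so 51.6% is not read as agreement or disagreement.

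The clusters with most peaks show these profiles. The largest lay on the minus strand of chromosome 7, from 135611641 to 135612659, with 16 peaks in 3 joined sites. Its log2 folds ran from 3.09 to 5.12 with a median of 4.04, and 9 of the 16 reached 4. From the 5′ end, the first site began at a log2 fold of 4.15 and 4.44, and its summit of 5.12 and 5.03 lay in adjoining peaks of 12 and 16 bases. The next lower peaks of that site stood at 3.90 and 3.09. A second rise within the cluster peaked at 4.60, at 135612149 to 135612171. The highest fold of this cluster thus sat in very short peaks, whose −log10 p of 7.74 and 8.74 was below the 13.6 reached by a 50-base peak nearby.

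The second largest cluster, on the plus strand of chromosome 22 from 38201321 to 38203275, held 15 peaks in 3 compact sites that together covered 19.1% of the span. Its log2 folds ran from 3.12 to 4.20, and only 3 peaks reached 4. Its −log10 p values were high throughout, from 26.1 to 48.1, and its middle site went from 3.84 to 4.20 and then down through 4.09, 3.85, 3.57, 3.31 and 3.12 toward the 3′ end. The third, on the plus strand of chromosome 10 from 72182269 to 72184118, held 14 peaks in 4 sites with a highest log2 fold of 4.75 and a −log10 p of at most 14.9. It lay 1250 kb from the nearest TIA1 peak on its strand.

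On the plus strand of chromosome 2, 13 peaks ran from 20646932 to 20648523. One site there went from 4.0 through 4.20, 4.56 and 4.58 to 4.26, 3.81, 3.46 and 3.11, a single summit across 8 peaks. The highest fold of the cluster, 5.24, belonged to a 74-base peak at its 3′ end, in another joined site. The nearest TIA1 peak on the strand was 3515 kb away.

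Chromosome 4 carried a pair of large clusters on opposite strands, 10.4 kb apart. The plus-strand cluster, from 77955953 to 77957961, held 11 peaks in 6 joined sites, the highest number of sites in any cluster, with log2 folds from 3.0 to 4.89. The minus-strand cluster, from 77968366 to 77969120, held 13 peaks in 2 sites with log2 folds from 3.04 to 4.62. Its 5′ site climbed from 3.26 through 3.64, 3.97, 4.17 and 4.52 to 4.62 and then stood at 4.19 and 3.91. Together these made the 1 Mb window with most clustered far peaks, 24. The −log10 p was at most 10.3 in each.

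Another 4 clusters held 12 peaks each. On the minus strand of chromosome 17, from 8063228 to 8064094, 9 of the 12 reached a log2 fold of 4 and the summit was 5.02. On chromosome 3 (minus strand, 149683129 to 149683851), 7 reached it and the summit of 4.95 was the peak nearest the 5′ end. On chromosome 1 (minus strand, 235274321 to 235274808), 6 reached it, with a summit of 4.92. The flattest of the 4 was on the plus strand of chromosome 12, from 110784140 to 110784984, where 10 of 12 reached it and the folds ran only from 3.5 to 4.43. A cluster of 11 on the minus strand of chromosome 1, from 205682411 to 205683319, had its lowest values toward the 5′ end and its highest, 4.82, in the peak nearest the 3′ end.

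**Figure D4:**
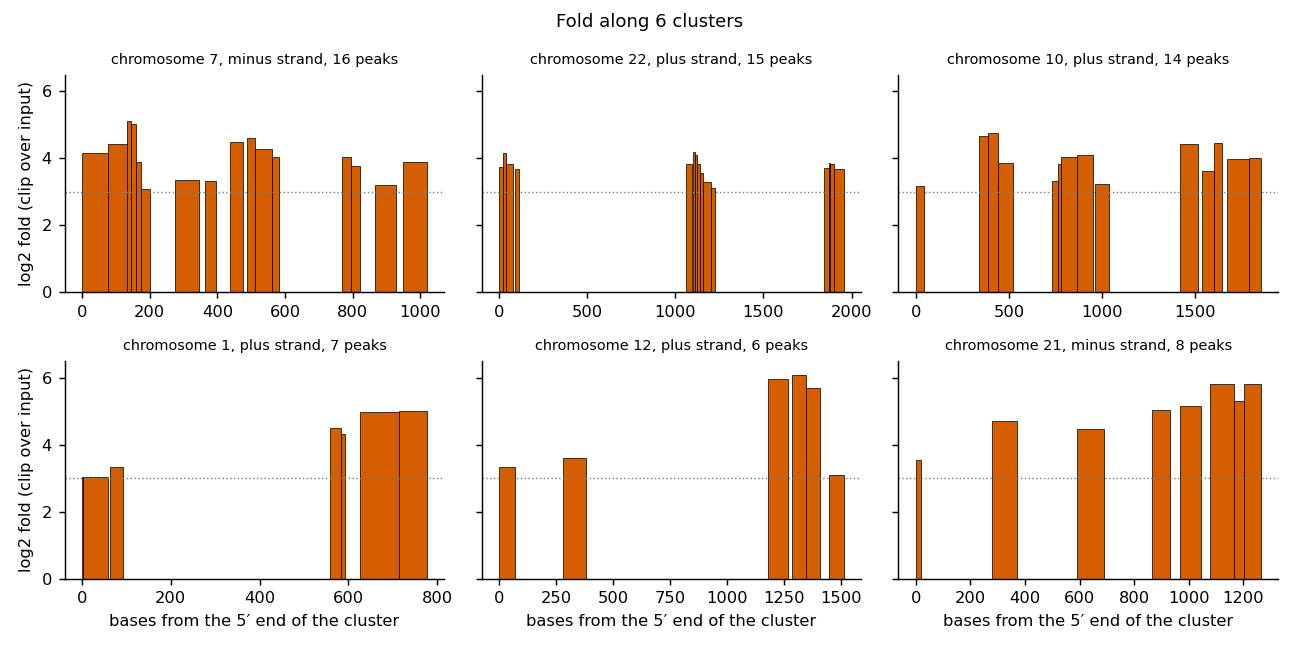
Log2 fold (bar height) of each clustered far RBFOX2 peak along 6 clusters, drawn from the 5′ end of the RNA, with bar width equal to peak width in bases. The dotted line is the lowest log2 fold in the list, 3.0. The 3 clusters with most peaks are in the top row, and below are the cluster with the highest summed −log10 p, on chromosome 1, and 2 of the highest fold, on chromosomes 12 and 21, whose highest bars are 5.02, 6.07 and 5.82.

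Ranked by fold, the first cluster lay on the plus strand of chromosome 12, from 74933697 to 74935207. Its 6 peaks had log2 folds, from 5′ to 3′, of 3.33, 3.61, 5.97, 6.07, 5.69 and 3.10. The summit of 6.07, at 74934982 to 74935040, is 67.0-fold over input, and the 3 high peaks stood far above the 3 others, which gave this cluster the widest range of all. It was also close to TIA1 by the standard of these clusters, with the nearest TIA1 peak 2.00 kb away. On the minus strand of chromosome 21, from 46225597 to 46226859, 8 peaks had log2 folds from 3.55 to 5.82 and a median of 5.10, and 7 of them reached 4. The lowest was at the 5′ end and the highest at the 3′ end.

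High folds also occurred in small clusters. On chromosome 10 (minus strand), the log2 fold was 5.90 for the peak from 119042189 to 119042265 and 4.30 for its only neighbour. On chromosome 3 (minus strand), adjoining peaks from 57557183 to 57557261 and from 57557262 to 57557281 stood at 5.83 and 5.57, and the other 3 peaks of that cluster lay between 3.13 and 3.54. A 3-peak cluster on the minus strand of chromosome 8, from 66630449 to 66630959, had 5.80 in its 3′ peak and 3.53 and 3.66 in the others. Further clusters of high fold were on chromosome 22 (22839267 to 22839465, 5.73), chromosome 17 (57188957 to 57189156, 5.66, and 61822895 to 61823374, 5.54), chromosome 5 (140085751 to 140085932, 5.55) and chromosome 19 (54378344 to 54379514, 5.48). Of these 5, the chromosome 22 pair had both peaks above a log2 fold of 5, while the chromosome 5 pair combined 5.55 with 3.32.

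By summed −log10 p, the leading cluster was on the plus strand of chromosome 1, from 116946506 to 116947282, and held both clustered far peaks at the limit of 400. Its 7 peaks had log2 folds of 3.05, 3.04, 3.35, 4.49, 4.32, 4.99 and 5.02 from 5′ to 3′, with −log10 p values of 7.64, 10.5, 9.50, 18.9, 19.2, 400 and 400. The fold and the −log10 p were both highest at the 3′ end. A contrasting arrangement was a single joined site on the minus strand of chromosome 17, from 1247925 to 1248206. There, 7 abutting peaks had log2 folds only from 3.08 to 3.44 but a −log10 p of up to 46.5. A 62-base site on the plus strand of chromosome 8, from 37555904 to 37555965, was similar, with 4 peaks from 3.22 to 3.32 and a −log10 p of up to 51.1. A cluster of 8 peaks on the minus strand of chromosome 4, from 1205294 to 1205869, had both its highest fold, 4.79, and its highest −log10 p, 31.7, in the same 35-base peak.

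At the other end, the 5 lowest log2 folds among clustered far peaks all stood at 3.0. The lowest of them, at 204380533 to 204380623 on chromosome 1 and at 160283171 to 160283251 on chromosome 3, had −log10 p values of 8.87 and 10.00, and the other 3 had 5.13, 3.81 and 3.54, on both sides of the median of the class, 6.47. The lowest folds are set by the threshold of the list.

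The distance from a cluster to the nearest TIA1 peak on its strand had a median of 219 kb (quartiles 42.0 and 977), taken from the peak of the cluster nearest to it. For solitary far peaks the median was 433 kb. It was 1 to 10 kb for 58 clusters (11.8%), 10 to 100 kb for 137 (27.9%), 100 kb to 1 Mb for 174 (35.4%) and over 1 Mb for 122 (24.8%). For solitary far peaks the same shares were 8.39, 20.2, 38.5 and 32.9%. The clusters lay nearer to TIA1 peaks than the solitary far peaks did in these lists, a difference that was not tested. It is a description and not a finding, because distance to TIA1 was part of the rule. The units also differ: a cluster takes the nearest of its peaks, while a solitary peak has only 1 distance. On the opposite strand, 4 of the 1596 peaks had a TIA1 peak within 1000 bases, and 4 had an RBFOX2 peak there. The same counts were not made for the other RBFOX2 classes, so they cannot be called particular to these peaks. Of the 1596, 770 lay on plus strands and 826 on minus strands.

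**Figure D5:**
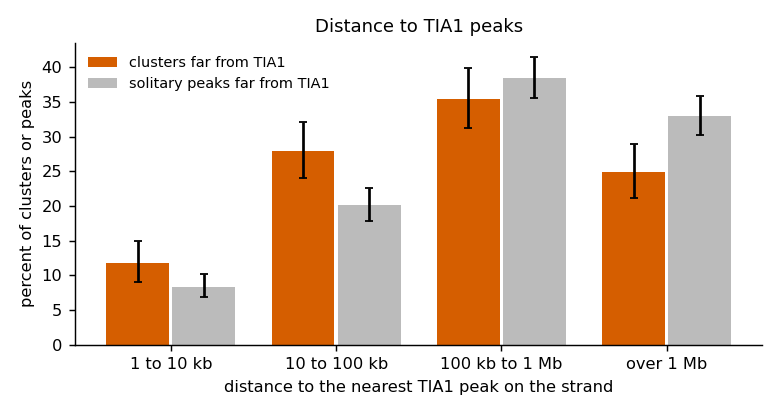
Percent of the 491 clusters (orange) and of the 1096 solitary far RBFOX2 peaks (grey) by distance to the nearest TIA1 peak on the strand. Bars carry 95% Clopper-Pearson intervals, which cover counting error only. Distance to TIA1 was part of the rule, and a cluster takes the nearest of its peaks, so the bars are a description. Over 1 Mb lie 24.8% of clusters and 32.9% of solitary peaks.

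Near the limits of the rule, the clustered far peak closest to a TIA1 peak was 1030 bases away and had a log2 fold of 4.0 (chromosome 3, 48605147 to 48605189). The next was 1041 bases away, with 3.71. Just outside, clustered RBFOX2 peaks at 996 and 994 bases from a TIA1 peak had log2 folds of 3.78 and 3.31. The widest distance to another RBFOX2 peak inside the rule was 967 bases, between a pair on chromosome 20 with log2 folds of 3.53 and 3.52. Just outside, peaks 1002 and 1015 bases from their neighbour had 3.78 and 3.96. The values on both sides of each limit were of the same order.

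Clustered far peaks were found on all 23 chromosomes that hold an RBFOX2 peak and in 392 windows of 1 Mb. Chromosome 1 held 162 of them, or 10.2%, where 10.5% of the whole list lay. The share of a chromosome's RBFOX2 peaks that were clustered and far from TIA1 was highest on chromosomes 22 (54.1%) and 20 (52.0%), and lowest on chromosomes 9 (23.3%) and 19 (24.6%). On chromosome 22, a single cluster gave 15 of 66. The 5 densest windows held 94 of the peaks (5.89%). The window of chromosome 16 from 2 to 3 Mb held 8 clusters, where the others of the 5 densest held 1 to 3.

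TIA1 peaks that were clustered and far from RBFOX2, chosen by the mirrored rule, numbered 980 in 362 clusters. They had a median log2 fold of 3.34, a median −log10 p of 8.42 and a median width of 33 bases, against 3.63, 6.47 and 62 bases for RBFOX2. Of the TIA1 clusters, 24 (6.63%) held 5 or more peaks, against 83 of 491 (16.9%) for RBFOX2. Single joined sites made up 60.5% of the TIA1 clusters and 50.3% of the RBFOX2 clusters. The RBFOX2 peaks near TIA1 formed larger clusters than either: 72 of their 315 clusters (22.9%) held 5 or more peaks, the largest held 26, and 58.4% were single joined sites. The lists come from separate immunoprecipitations of unknown depth, so protein and library cannot be told apart here.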

How the data were processed

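The 8 eCLIP libraries were grouped by the titles in their labels. Per the submitters' processing notes, UMI-tools 1.0.0, cutadapt 1.14, STAR 2.4.0i, SAMtools 1.6 and the hg19 build were used, with no roles given. No source used here names the peak caller. The deposited lists have no header. Their column 4 was read as −log10 of a p-value (at least 3.01, limited at 400) and column 5 as a log2 fold of clip over input (at least 3.0), both inferred from the deposited values. Depth is unknown.

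Distances are bases between peaks on the strand, and abutting peaks are 0 apart. Joined sites merge peaks within 50 bases. Clusters named are the 10 with most peaks, the 10 of highest log2 fold and the 10 of highest summed −log10 p, 25 in all, and single peaks named are those of extreme log2 fold or nearest to the limits of the rule. Planned gene lists, location classes and motifs need hg19 and were not analysed here. Members, lists and rules were chosen with earlier results of these data known. Only the assignment of peaks to classes and to chains was tested on simulated peaks. Alternatives were other distances, stricter thresholds, merging, and leaving out short peaks, sex and mitochondrial chromosomes or clusters of 2. Software was scipy 1.17.1, pandas 2.3.3, matplotlib 3.10.9 and numpy 2.4.6 under Python 3.11.15.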

Additional observations from a re-analysis of the deposited data

How the results depend on the processing

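Distances of 500 and 2000 bases, and a list without chromosomes M, X and Y, kept the number of peaks and clusters within 1.5 times and the medians within their 95% binomial intervals. Those intervals take neighbouring peaks as independent, which they are not, and do not measure spread between replicates. They serve here only as a yardstick for whether a value moved. A distance of 10 kb moved only the median −log10 p, from 6.47 to 6.21. Requiring a log2 fold of at least 4 left 394 peaks in 119 clusters, with a median log2 fold of 4.41, a median −log10 p of 11.1, a median width of 47 bases and, by construction, 100% at that fold. Requiring a −log10 p of at least 5 left 321 clusters, with medians of 3.75 and 8.79 and 35.4% at a log2 fold of 4. Merging peaks within 50 bases left 578 sites in 249 clusters, with a median log2 fold of 3.68, a median width of 99 bases and 32.2% at a log2 fold of 4, and a merged site takes its highest value by construction. Leaving out peaks under 20 bases gave a median width of 69. Chains of at least 3 RBFOX2 peaks gave 227 clusters with medians of 3.68, 7.32 and 53 bases, and 31.9% at a log2 fold of 4. In all 8 alternatives with class medians, clustered far peaks had the highest median log2 fold of the 4 RBFOX2 classes, and clustered peaks near TIA1 had the highest median −log10 p. No paired analysis was possible because the deposited lists carry joint values only, and leaving out 1 replicate was not possible either. Alternatives on motifs, location classes and genes were not run. Depth is unknown, so a TIA1 peak missing near a cluster cannot be read as absence of TIA1.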

Other observations

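Some clusters had others close by on the same strand. The counts of neighbours below, on either strand, were not made for the other RBFOX2 classes. None can thus be called particular to these clusters. Another cluster lay within 10 kb for 29 of the 491 (5.91%), in 14 groups, and any further RBFOX2 peak lay within 10 kb for 97 (19.8%). The group with most clusters (chromosome 8, plus strand, 37553580 to 37555965) held 3 of them, with 10 peaks that reached a log2 fold of 3.44. Next came chromosome 17 (minus strand, 61909489 to 61920008), where 2 clusters held 9 peaks and reached 4.63. No 2 clusters lay within 10 kb of each other on opposite strands (0 of 491), and 7 had such a neighbour within 20 kb. Beside the chromosome 4 pair, these were on chromosome 16, at 2127758 to 2128227 on the plus strand and at 2140910 to 2141161 and 2147476 to 2147742 on the minus strand, and on chromosome 19, at 7978312 to 7979140 and 7989898 to 7990984. The cluster farthest from any TIA1 peak on its strand was a group of 4 peaks on chromosome 8 (minus strand, 8750607 to 8751113) that reached a log2 fold of 3.90.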
